A study of Mus musculus with 13 samples.

Results

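The 8 condensin genes of the mouse (Ncaph, Ncapd2, Ncapg, Ncaph2, Ncapd3, Ncapg2, Smc2 and Smc4) were followed through the maturation of single oocytes. They were chosen by symbol, with measured values of these libraries already known, and all 8 were present among the 18939 genes with counts and the 49686 genes with FPKM. All 8 passed the filter on low counts in each fit.

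The study sequenced 13 single mouse oocytes to ask how the transcriptomes of GV oocytes with a non-surrounded nucleolus (NSN) and with a surrounded nucleolus (SN) differ, before and after maturation. There were 3 SN GV oocytes, 3 NSN GV oocytes, 4 MII oocytes that had matured in vitro after an SN nucleolus (SN-MII) and 3 that had matured after an NSN nucleolus (NSN-MII). All came from C57BL/6 females of 3 to 4 weeks, collected 48 h after PMSG, a gonadotropin that stimulates follicle growth. Oocytes of every group carried injected FBL-GFP mRNA, which encodes a tagged fibrillarin that marks the nucleolus, and had been held at the GV stage for 6 h by Cilostamide, an inhibitor of meiotic resumption, before they were classified by the FBL-GFP pattern. There was no uninjected group, so an effect of the injection cannot be told apart from any group. The labels do not say which oocytes shared a female, and p-values measure the spread between these single oocytes.

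Condensins are ring-shaped protein complexes that use ATP to fold chromatin into loops and to compact chromosomes for division. Both complexes share the ATPases SMC2 and SMC4. Condensin I adds the kleisin NCAPH and the HEAT-repeat subunits NCAPD2 and NCAPG, whereas condensin II adds their paralogs NCAPH2, NCAPD3 and NCAPG2. In oocytes condensins act on the chromosomes of the meiotic divisions, which run on stored mRNA because transcription stops late in growth and resumes only in the embryo. In the paper, NSN GV oocytes still took up a label of new RNA, whereas SN GV oocytes hardly did.

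The libraries were primed on poly(A) tails, so the ends of the condensin mRNAs are shown first. During maturation, mRNAs with a cytoplasmic polyadenylation element (CPE) close to the end can gain a tail, and other mRNAs lose theirs. In these libraries a change in the amount of an mRNA and a change in its tail length cannot be told apart. The CPE letters TTTTAT, searched on the transcript strand only, stood in the last 100 bases of the main transcript of 4 of the 8 genes, against 12.8% of 21725 genes. AATAAA or ATTAAA, the usual signals for cleavage and polyadenylation, stood there in 6 of 8, against 74.2% of all genes. The windows below give 30 bases around a CPE (Ncapd2, Ncapg, Ncapd3 and Smc2) or, where there was none, around AATAAA (Ncaph and Ncaph2), with the motif in capitals, from GRCm38 and the GENCODE M21 annotation.
Ncaph, chr2:127103830-127103859, minus strand: ttaataccccaaAATAAAactattctggca
Ncapd2, chr6:125168007-125168036, minus strand: taatgaataaatgtTTTTATagacttttaa
Ncapg, chr5:45700492-45700521, plus strand: ctaacatgaaatTTTTATtgtgcttctgct
Ncaph2, chr15:89372794-89372823, plus strand: gtgtctatttacAATAAAttgttctttata
Ncapd3, chr9:27095241-27095270, plus strand: ataattacaaatTTTTATtaaaagaggtgt
Smc2, chr4:52488187-52488216, plus strand: tttgtttttgtaTTTTATatatagtttcac
None of these letters were found in the last 100 bases of Ncapg2 or Smc4, which says nothing of other ends these mRNAs may have. A match is a description of the sequence and not evidence of a working element.

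RefSeq promoters (GRCm38.p6, from 250 bases before to 50 after the start) were matched for 7 of the 8 genes, all but Smc4, and gave 8 promoters. The cell cycle homology region letters TTTGAA, searched on both strands, stood in 5 of these 8 promoters, against 17.9% of 32851 promoters of the same length. For Ncapd3 they stood only in a promoter that starts inside the gene, at chr9:27060416. The Ncapd3 promoter at chr9:27030165, close to the annotated start of the gene, held none. Ncapg and Ncapg2 are shown because over all 13 libraries these paralogs went opposite ways between stages. Each also held TTTGAA close to the start site. By oocyte type, the change of Ncapg was -0.73 on the log2 scale in SN and -0.05 in NSN oocytes. A link between these letters and the changes was not tested. The windows run from 120 bases before to 29 after the start, with TTTGAA in capitals.
Ncapg, chr5:45669805-45669954, plus strand: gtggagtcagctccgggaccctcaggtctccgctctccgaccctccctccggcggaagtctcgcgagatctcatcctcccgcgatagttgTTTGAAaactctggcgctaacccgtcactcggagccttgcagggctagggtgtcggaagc
Ncapg2, chr12:116405316-116405465, plus strand: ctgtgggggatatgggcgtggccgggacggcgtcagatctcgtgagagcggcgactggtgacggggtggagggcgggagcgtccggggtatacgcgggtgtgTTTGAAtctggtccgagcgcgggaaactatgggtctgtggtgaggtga
The letters GCGGGAA, which resemble an E2F site, stood in 2 of the 8 promoters against 4.6% of all, and CCAAT in 3 of 8 against 37.4%. No factor binding was measured in these libraries.

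The libraries held between 7140416 and 8846287 counts and 11579 to 13333 genes with a count. NSN-MII replicate 3 stood apart, with the fewest genes and with 12.1% of its counts in its 10 highest genes, against 5.47% to 11.03% in the others. Of 11 oocyte markers, 10 exceeded 1 CPM (counts scaled to the library total) in every library. Of 15 cumulus and granulosa markers, 7 stayed under 1 CPM in all libraries, with Foxl2, Fst, Lhcgr and Ptx3 at 0. Another 3 exceeded 1 CPM in every library: Cyp19a1 at 37.8 to 158, Nr5a2 at 6.93 to 18.5 and Kitl at 1.62 to 13.4 CPM. The summed level of the 15 markers was 61.4 to 92.4 CPM at GV and 99.0 to 187 CPM at MII. The part of these markers in the stage comparisons was not tested. CPM are shares of a library, scaled by TMM, so less RNA per oocyte at MII would not be seen in them.

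Ncaph encodes the kleisin that closes the condensin I ring. It lay at 151, 170 and 129 CPM in the SN GV oocytes and at 123, 155 and 194 CPM in the NSN GV oocytes. The 4 SN-MII oocytes held 111, 107, 113 and 123 CPM, and the 3 NSN-MII oocytes held 45.4, 40.6 and 41.9 CPM. Thus the GV groups overlapped, whereas every NSN-MII oocyte lay below every SN-MII oocyte, as was the case for 5.56% of all genes tested at MII.

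The fitted Ncaph level was 2.66-fold lower in NSN-MII oocytes, relative to SN-MII (log2 fold change -1.41 ± 0.17 SE, 3 against 4 oocytes, adjusted p = 0.00821 by edgeR's quasi-likelihood test over 10028 genes). It was the only condensin gene called in this comparison, in which 0.259% of all genes tested were called and 0.249% were called as lower. Since Ncaph was known from these samples when the genes were chosen, its call is not independent evidence. Its adjusted p by edgeR's quasi-likelihood test was 0.0504 without SN-MII replicate 3, 0.0577 without NSN-MII replicate 1 and 0.0582 without NSN-MII replicate 2. The log2 difference stayed between -1.47 and -1.375 whichever library was left out. By limma on log2(FPKM + 1) the difference was -1.25 (adjusted p = 0.0803), and without NSN-MII replicate 3 edgeR's adjusted p was 0.00391.

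Ncapd2 encodes a HEAT-repeat subunit of condensin I. In FPKM it was the least abundant member at GV. It lay at 10.8, 12.2 and 10.5 CPM in SN and 9.24, 6.61 and 16.4 CPM in NSN oocytes. At MII it reached 20.2, 25.4, 27.9 and 36.5 CPM in SN and 23.0, 22.5 and 30.9 CPM in NSN oocytes. All MII oocytes lay above all GV oocytes, as in 20.9% of all genes tested, while SN and NSN oocytes overlapped at each stage.

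Ncapg, the other HEAT-repeat subunit of condensin I, was the most abundant of the non-SMC subunits in FPKM. Its levels were 723, 758 and 569 CPM in SN GV oocytes and 483, 489 and 713 CPM in NSN GV oocytes. They were 521, 414, 398 and 318 CPM in SN-MII and 581, 513 and 531 CPM in NSN-MII oocytes. SN-MII oocytes lay below all SN GV oocytes, as in 34.5% of all genes tested, and NSN-MII oocytes lay within the range of NSN GV oocytes. Exons of Ncapg overlap those of Lcorl on the opposite strand, and without strand, reads from the shared stretch cannot be assigned with certainty.

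Ncaph2 encodes the kleisin of condensin II. It stood at 57.1, 61.9 and 62.7 CPM in SN GV and at 68.5, 93.7 and 62.3 CPM in NSN GV oocytes. After maturation it was down to 16.05, 15.3, 11.8 and 7.09 CPM in SN-MII and 15.5, 23.0 and 21.3 CPM in NSN-MII oocytes. All MII oocytes lay below all GV oocytes, as in 26.5% of all genes tested, and the oocyte types overlapped within each of them. Exons of Ncaph2 overlap those of Sco2 and Tymp on the opposite strand, so part of its reads could belong to these genes.

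Ncapd3 encodes a HEAT-repeat subunit of condensin II. SN GV oocytes held 89.1, 115 and 85.5 CPM, and NSN GV oocytes held 88.5, 21.0 and 122 CPM. The value of 21.0 CPM in NSN GV replicate 2 was far below the rest. SN-MII oocytes held 262, 202, 183 and 196 CPM and NSN-MII oocytes 144, 160 and 135 CPM, without overlap between the types, as in 5.56% of all genes tested. This difference did not pass the test (log2 fold change -0.52 ± 0.17 SE, adjusted p = 0.312 by edgeR's quasi-likelihood test).

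Ncapg2, the other HEAT-repeat subunit of condensin II, was measured at 107, 125 and 70.3 CPM in SN GV and 74.6, 63.1 and 114 CPM in NSN GV oocytes. SN-MII oocytes reached 266, 270, 247 and 282 CPM, and NSN-MII oocytes 203, 195 and 274 CPM. Each MII oocyte exceeded each GV oocyte.

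Smc2 and Smc4 encode the ATPases of both complexes. Smc2 was at 25.4, 33.1 and 66.3 CPM in SN GV and 67.3, 60.6 and 33.2 CPM in NSN GV oocytes, a wide spread in both. At MII it lay at 61.4, 46.5, 49.9 and 66.8 CPM in SN and 71.3, 76.4 and 64.1 CPM in NSN oocytes, and every pair of the 4 groups overlapped. Smc4 was at 409, 414 and 322 CPM in SN GV and 308, 382 and 454 CPM in NSN GV oocytes. It was at 754, 777, 786 and 873 CPM in SN-MII and 713, 792 and 1007 CPM in NSN-MII oocytes, above every GV oocyte.

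**Figure D1:**
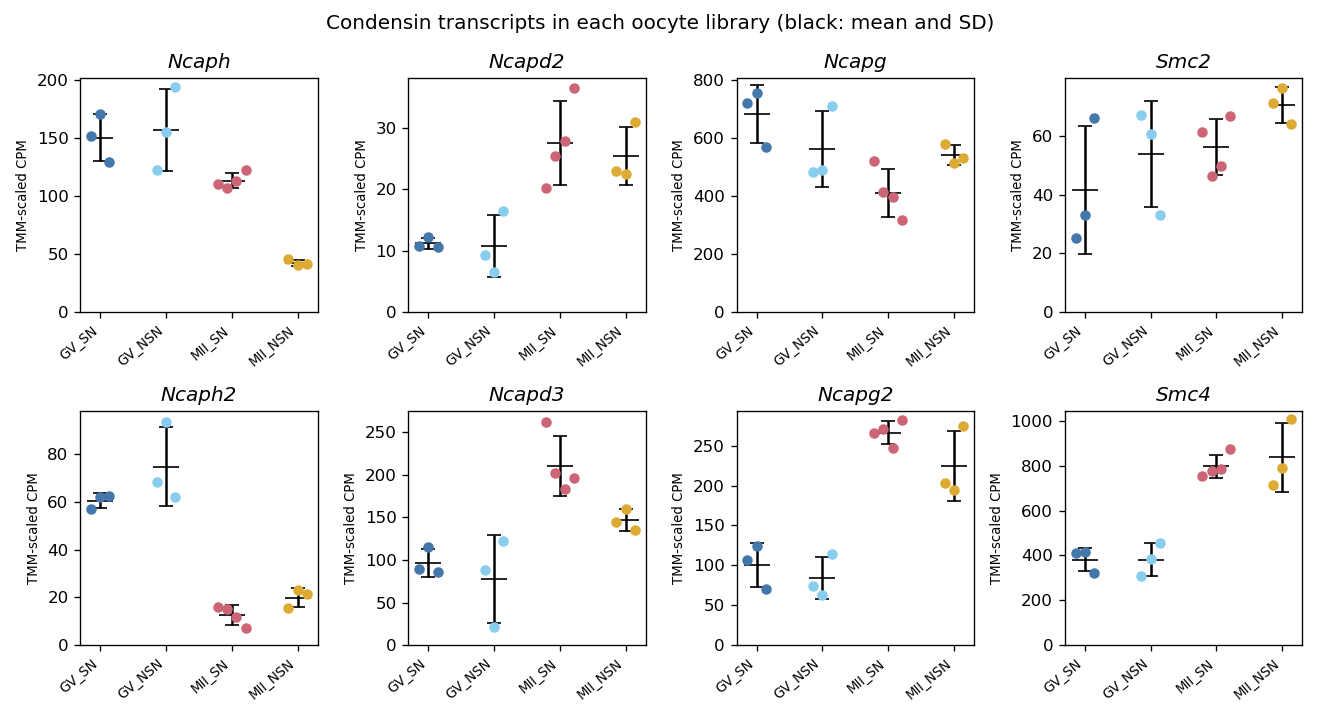
TMM-scaled CPM (vertical axes, from 0) of the 8 condensin genes, with each point 1 oocyte and black marks for the mean and SD of the SN GV (GV_SN), NSN GV (GV_NSN), SN-MII (MII_SN) and NSN-MII (MII_NSN) groups. Ncaph separates the MII groups, at 107 to 123 CPM in SN-MII and 40.6 to 45.4 CPM in NSN-MII oocytes. Ncapd3 separates them too, and 5.56% of all genes tested were likewise lower in NSN-MII oocytes. Ncaph2 and Ncaph separate the stages as lower at MII, as did 26.5% of all genes tested. Ncapd2, Ncapd3, Ncapg2 and Smc4 separate the stages as higher at MII, as did 20.9%.

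At the GV stage no condensin gene was called between NSN and SN oocytes, and 0% of the 10839 genes tested were called by edgeR's quasi-likelihood test, with 1.75% of all genes at an unadjusted p under 0.05. DESeq2 called no gene in this comparison either. The log2 differences of the members ran from -0.29 for Ncapd3 to 0.39 for Smc2. Their 95% intervals were -0.36 to 0.51 for Ncaph, -0.37 to 0.40 for Smc4 and -1.45 to 0.86 for Ncapd3, with 3 oocytes per group. Without NSN GV replicate 2 the Ncapd3 difference was 0.16.

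At the MII stage, the members other than Ncaph had log2 differences from -0.52 (Ncapd3) to 0.66 (Ncaph2), none of them called. For Ncapg the difference was 0.39 ± 0.17 SE (adjusted p = 0.510 by edgeR's quasi-likelihood test), and for Smc4 the 95% interval was -0.26 to 0.39. The median over the 8 members was -0.03, beside 0.02 over all genes tested.

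Between stages, 7 of the 8 members were called over all 13 libraries, 4 higher and 3 lower at MII, in a comparison in which 68.6% of all genes tested were called, 31.7% higher and 36.9% lower. Most genes at large were called as well, so the count is no result about the members. The members' median log2 change was 0.72, beside -0.10 over all 11375 genes tested and -0.14 over all genes with DESeq2's size factors, which left the members' calls at 4 higher and 3 lower.

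The genes that rose were Ncapg2, Ncapd2, Smc4 and Ncapd3. Ncapg2 rose 2.66-fold at MII (log2 1.41 ± 0.18 SE, adjusted p = 2.52e-06), and Ncapd2 rose 2.41-fold (log2 1.27 ± 0.24 SE, adjusted p = 0.000169), both by edgeR's quasi-likelihood test. Smc4 rose 2.14-fold (log2 1.10 ± 0.14 SE, adjusted p = 2.81e-06) and Ncapd3 2.03-fold (log2 1.02 ± 0.28 SE, adjusted p = 0.00340) by the same edgeR quasi-likelihood test. In each of these 4 genes the MII oocytes lay above the GV oocytes without overlap, as in 20.9% of all genes tested.

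The genes that fell were both kleisins and Ncapg. Ncaph2 was 4.26-fold lower at MII (log2 -2.09 ± 0.21 SE, adjusted p = 1.72e-07) and Ncaph 2.21-fold lower (log2 -1.15 ± 0.14 SE, adjusted p = 2.03e-06) by edgeR's quasi-likelihood test. Neither overlapped between stages, and 26.5% of all genes tested were likewise lower without overlap. Ncapg was 1.31-fold lower (log2 -0.39 ± 0.15 SE, adjusted p = 0.0279 by edgeR's quasi-likelihood test) with overlap. Its adjusted p lay between 0.0542 and 0.0943 when SN GV replicate 1, SN GV replicate 2, NSN GV replicate 3, SN-MII replicate 4 or NSN-MII replicate 2 was left out.

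Smc2 was not called (log2 0.41 ± 0.23 SE, adjusted p = 0.117 by edgeR's quasi-likelihood test). Without SN GV replicate 3, which held the highest Smc2 level of its group, the change was 0.66 with an adjusted p of 0.00986 by the edgeR quasi-likelihood test. Each complex thus held members that rose and members that fell: 1 rose and 2 fell in condensin I, and 2 rose and 1 fell in condensin II.

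**Figure D2:**
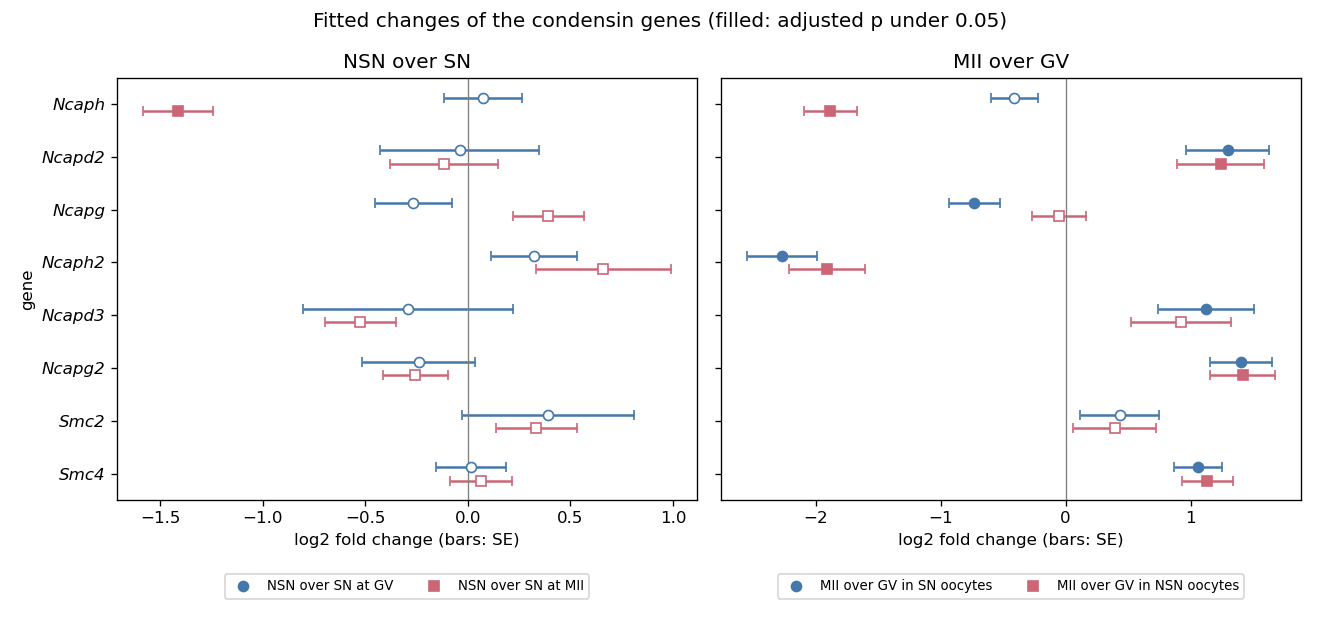
Fitted log2 fold changes (horizontal axes, bars are SE) of the 8 condensin genes, NSN over SN at each stage on the left and MII over GV in each oocyte type on the right, with filled points for an adjusted p under 0.05. Ncaph is the only filled point on the left, at -1.41, and on the right the points of Ncapd2, Ncapd3, Ncapg2, Smc2 and Smc4 lie above 0 in both oocyte types. Of these, Smc2 in both types and Ncapd3 in NSN oocytes are not filled.

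Maturation was also compared within each oocyte type. The GV and MII libraries came from different oocytes, and the paper reports that NSN oocytes matured less often in vitro than SN oocytes. A change during maturation and a difference in which oocytes reached MII cannot be told apart here. In SN oocytes 6 members were called, 4 higher (Ncapd2, Ncapd3, Ncapg2 and Smc4) and 2 lower (Ncapg and Ncaph2), against 56.3% of all genes (25.1% higher and 31.2% lower). In NSN oocytes 5 members were called, 3 higher (Ncapd2, Ncapg2 and Smc4) and 2 lower (Ncaph and Ncaph2), against 56.3% of all genes (25.4% higher and 30.8% lower).

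Ncaph fell by 1.88 on the log2 scale in NSN oocytes (SE 0.21, adjusted p = 2.12e-06 by edgeR's quasi-likelihood test), and its value in SN oocytes was -0.41 (SE 0.19, adjusted p = 0.0781 by the same edgeR test). Without NSN-MII replicate 3 the adjusted p of the edgeR test in SN oocytes was 0.0453, and over all libraries it was 0.0417 by DESeq2 and 0.0338 by limma on log2(FPKM + 1). The difference between these changes, tested as the interaction of type and stage, was -1.47 ± 0.28 SE. It was not called by edgeR's quasi-likelihood test (adjusted p = 0.134), which called 2 of 11375 genes (0.0176%), and it was called by DESeq2 (adjusted p = 0.00104), which called 43 genes. Without single libraries its edgeR adjusted p ranged from 0.0606 to 0.579.

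Ncapg showed values of -0.73 in SN and -0.05 in NSN oocytes, and its interaction was 0.68 ± 0.30 SE (adjusted p = 0.896 by edgeR's quasi-likelihood test). Ncapd3 rose by 1.12 in SN oocytes, and its value in NSN oocytes was 0.92 (adjusted p = 0.0585 by edgeR's quasi-likelihood test, 0.0483 by DESeq2 and 0.0313 by edgeR without a filter on low counts). In NSN oocytes that value was 0.47 without NSN GV replicate 2 (adjusted p = 0.102 by edgeR's quasi-likelihood test) and 1.43 without NSN GV replicate 3 (adjusted p = 0.00830 by the same edgeR test). In SN oocytes the adjusted p of Ncapd3 was 0.0643, 0.0709 and 0.05003 by edgeR's test without SN GV replicate 1, SN GV replicate 3 and SN-MII replicate 1. Without SN GV replicate 3, Smc2 in SN oocytes was at 0.93 with an adjusted p of 0.0198 by edgeR's test.

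Levels of different genes were compared per length, in FPKM. Smc4 was highest at both stages, at 239 ± 19.8 FPKM (SD, n = 6) at GV and 538 ± 37.5 FPKM (SD, n = 7) at MII. Ncapg followed at 163 ± 27.0 FPKM at GV and 111 ± 26.9 FPKM at MII. At GV the order went on with Ncaph (57.4 ± 6.72 FPKM), Smc2 (34.4 ± 14.6), Ncapg2 (26.7 ± 5.08), Ncaph2 (24.2 ± 2.39), Ncapd3 (21.3 ± 8.46) and Ncapd2 (4.04 ± 1.51). The neighbours from Smc2 to Ncapd3 lay within each other's spread.

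At MII the types were ordered apart, since Ncaph differed between them. In SN-MII oocytes (SD, n = 4) Smc4 and Ncapg were followed by Ncapg2 (64.0 ± 4.22 FPKM), Ncapd3 (42.4 ± 7.70), Ncaph (39.7 ± 1.80), Smc2 (35.4 ± 8.74), Ncapd2 (7.75 ± 3.37) and Ncaph2 (3.72 ± 1.19). In NSN-MII oocytes (SD, n = 3) they were followed by Ncapg2 (54.8 ± 4.08 FPKM), Smc2 (50.5 ± 14.4), Ncapd3 (28.8 ± 6.33), Ncaph (16.5 ± 4.08), Ncapd2 (8.53 ± 3.70) and Ncaph2 (6.80 ± 1.39). In FPKM, Ncapd3, Ncaph and Smc2 overlapped in SN-MII oocytes, whereas in NSN-MII oocytes Ncaph lay below both of the others. Per kb of the main transcript, given below, Smc2 lay below Ncaph in both types. Ncapd2 and Ncaph2 overlapped in both types.

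The order of Smc4 and Ncapg, and the place of Smc2, depended on the length used. The length at which an FPKM value and its count meet was 1691 to 1813 bases for Smc4 at GV and 1327 to 1443 at MII, whereas its main transcript has 4316 bases. For Smc2 it was 1177 to 1733 bases against 5404. For Ncapg it was 3799 to 4386 bases against 3703. These lengths were worked out with library totals over the 18939 genes with counts, whereas FPKM covered 49686 genes. They may thus differ from the lengths behind the FPKM. The mean also dropped at MII for Ncapg, from 4264 to 3845 bases, and for Ncaph, from 2979 to 2507. It was lower, with overlap between stages, for Ncaph2 (3109 to 2906), Smc2 (1568 to 1401) and Ncapg2 (3822 to 3737). The mean did not drop for Ncapd3, from 4548.5 to 4598, or for Ncapd2, from 3204 to 3266. Whether transcript lengths changed between stages was not tested. Per kb of the main transcript, Ncapg lay at 168 ± 33.5 CPM per kb at GV (SD, n = 6) and Smc4 at 88.4 ± 13.2, and at MII they lay at 126 ± 25.2 and 189 ± 22.6 (SD, n = 7). Smc2 had a mean of 8.82 CPM per kb at GV, below 15.8 for Ncapd3. In SN-MII oocytes Smc2 lay at 8.60 to 12.4, below Ncaph (39.7 to 45.6) and Ncapd3 (33.2 to 47.7). In NSN-MII oocytes it lay at 11.9 to 14.1, below Ncaph (15.0 to 16.9). The annotation lists coding transcripts as short as 1163 bases for Smc4 and 1660 bases for Smc2.

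**Figure D3:**
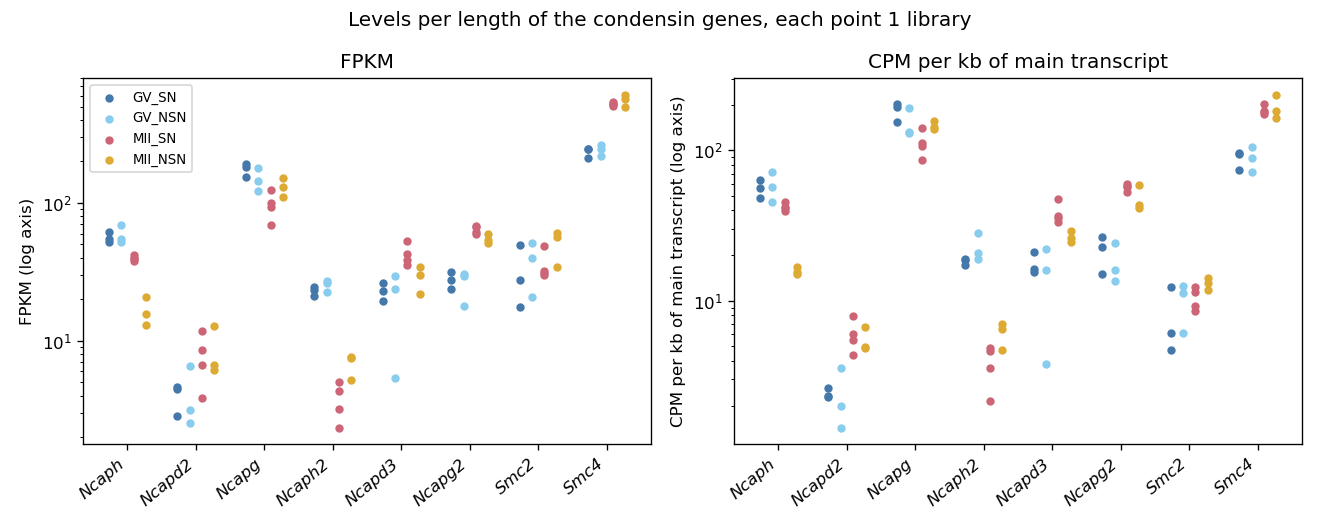
Levels per length of the 8 condensin genes on log axes, FPKM on the left and CPM per kb of the main transcript on the right, with each point 1 oocyte and colours for the groups. Smc4 lies at 212 FPKM or above in all libraries and exceeds Ncapg on the left, whereas on the right Ncapg exceeds Smc4 at GV.

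Paralogs that take the same place in the complexes were set against each other as FPKM ratios per library, with no test. The kleisin ratio, Ncaph over Ncaph2, was 1.97 to 3.05 in the 6 GV oocytes. It was 7.73 to 17.0 in the SN-MII oocytes and 1.69 to 4.03 in the NSN-MII oocytes. Hence SN-MII oocytes lay above all others, and in FPKM NSN-MII oocytes spanned the range of GV oocytes. The SN-MII ratios rest on a low Ncaph2 level of 2.34 to 5.04 FPKM, part of which could belong to Sco2 and Tymp. They also rest on Ncaph, which was known from these samples when the genes were chosen. In CPM per kb the ranges were 2.02 to 3.81 at GV, 8.45 to 21.2 in SN-MII and 2.16 to 3.60 in NSN-MII oocytes.

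Ncapg exceeded Ncapg2 4.77- to 6.76-fold at GV, 1.13- to 1.80-fold in SN-MII and 1.88- to 2.96-fold in NSN-MII oocytes, so this ratio was lower in all MII than in all GV oocytes. Ncapd2 over Ncapd3 had a median of 0.200 at GV and 0.205 at MII, with overlap of all groups. Of the summed FPKM of the 6 non-SMC subunits, condensin I made up 71.2% to 78.0% at GV, 54.2% to 59.6% in SN-MII and 60.6% to 67.4% in NSN-MII oocytes, and Ncapg held most of the condensin I sum. These are mRNA ratios, and protein was not measured.

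**Figure D4:**
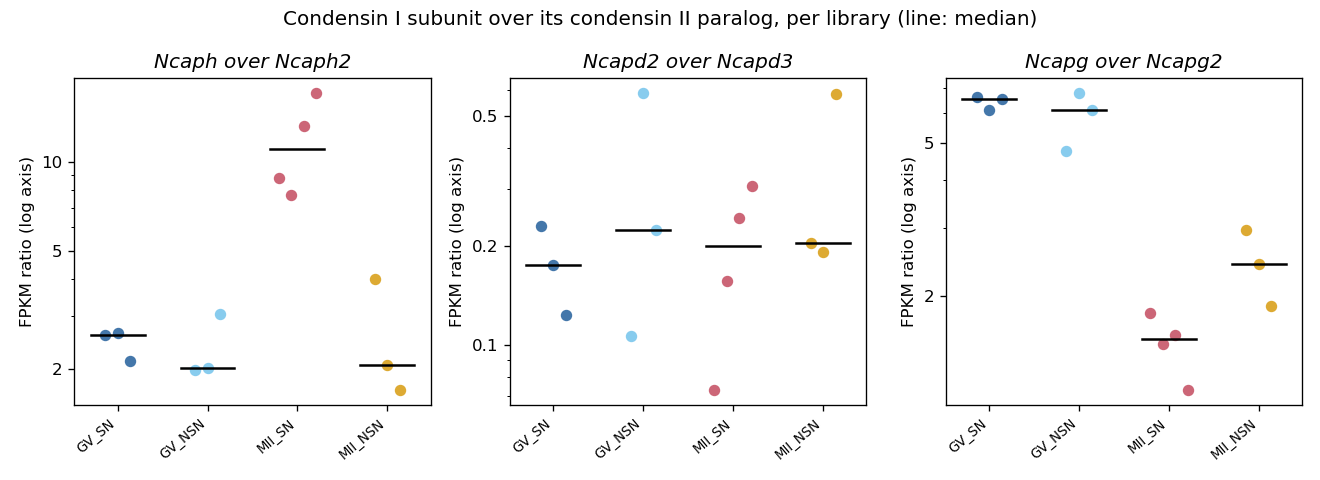
FPKM ratio of each condensin I subunit to its condensin II paralog (log axes), with each point 1 oocyte and lines for group medians. The kleisin ratio is 7.73 or above in the 4 SN-MII oocytes and at most 4.03 in all others, and the Ncapg ratio is at most 2.96 at MII.

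Condensin works with kinases, phosphatase and topoisomerase, and 17 such partners were examined. None was called between NSN and SN at GV. At MII Aurkb, a kinase of the chromosomal passenger complex, was called, as were 0.259% of all genes tested. Its means were 26.1 CPM in SN-MII and 5.07 CPM in NSN-MII oocytes (log2 -2.35 ± 0.36 SE, adjusted p = 0.0273 by edgeR's quasi-likelihood test). Its interaction of type and stage was not called (-2.145 ± 0.46 SE, adjusted p = 0.196 by the same edgeR test). Fits without single libraries were not examined for Aurkb. The other 16 were not called. Among them were Aurkc, a related kinase, at -0.07, and Mki67, a surfactant of mitotic chromosomes, at 0.92 (adjusted p = 0.0882 by edgeR's quasi-likelihood test). Between stages 9 partners rose and 5 fell, beside 31.7% and 36.9% of all genes tested, with a median log2 change of 0.58 beside -0.10 over all genes. Cdk1, the kinase that drives entry into division and phosphorylates condensin, fell by 6.19 on the log2 scale, from group means of 194 and 224 CPM at GV to 3.62 and 2.33 CPM at MII (adjusted p = 3.90e-11 by edgeR's quasi-likelihood test). Ccnb1, its cyclin, rose by 1.04, and Top2a, the topoisomerase that untangles sister DNA, rose by 0.94.

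Of 9 genes of the related cohesin and SMC5/6 complexes and their kin, 8 were tested, all but the kleisin Rec8. None was called between NSN and SN oocytes at either stage. Between stages 5 rose and 0 fell by edgeR's quasi-likelihood test, beside 31.7% and 36.9% of all genes tested. They were Rad21 (log2 1.62), Smc6 (1.49), Smc3 (1.22), Smchd1 (0.97) and Smc5 (0.68). The median over the 8 genes tested was 0.96, beside -0.10 over all genes.

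The genes with the group pattern nearest to 3 of the members were named by the root mean square difference of centred log2(FPKM + 1) over the 4 group means, among 11517 genes. Nearest to Ncaph was Atp6v0e (0.0599), a subunit of the vacuolar proton pump, at 177, 178, 130 and 54.8 FPKM in SN GV, NSN GV, SN-MII and NSN-MII oocytes. Nearest to Smc4 was Eif5b (0.00955), a translation initiation factor, and nearest to Smc2 was Set (0.0215), a histone chaperone. The measure is over 4 points and was not tested.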

How the data were processed

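Single oocytes were sequenced with the SMART-seq2 protocol, which primes on poly(A) tails. The authors trimmed reads with Trim Galore 0.4.4, mapped them to mm10 with Bowtie2 2.3.5 and quantified genes with RSEM 1.2.28. The tables of each stage hold RSEM's expected counts as deposited, with reads of several genes shared out, and were rounded here. The authors also deposited 1 table of FPKM for all libraries, scaled by transcript length and library size. No molecular identifiers and no step that keeps the strand are named in the sources used here.

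Groups came from the deposited labels. In edgeR 4.0.16 under R 4.3.3, low genes were removed by filterByExpr and TMM set the scaling. The quasi-likelihood test compared NSN with SN oocytes in a fit per stage, and the stages and the interaction in 1 fit of all 13 libraries. P-values were adjusted over all genes tested by Benjamini-Hochberg, with calls at 0.05. SE is the log2 change over the root of F. Levels are TMM-scaled CPM of the fit of all libraries. Total counts were 7140416 to 8846287 per library, and the biological coefficient of variation (0.352 at GV, 0.344 at MII) measures the spread between oocytes.

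Alternatives were DESeq2 1.42.0, its size factors, no filter on low counts, a 1.5-fold minimum, the replicate number as a block, limma 3.58.1 on log2(FPKM + 1) and log2(FPKM + 0.1) for genes whose mean FPKM was 1 or more, all libraries in 1 fit, and each library left out. Library totals over all genes, in place of totals over the genes that passed the filter, were tried after the results had been seen. The members, gene lists and motifs were chosen with earlier results of these data known, and all 8 members were named. The steps were tested on simulated data.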

Additional observations from a re-analysis of the deposited data

How the results depend on the processing

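Between NSN and SN oocytes at MII, 26 genes were called by edgeR's quasi-likelihood test, but 221 by DESeq2, 89 without a filter on low counts, 69 with all libraries in 1 fit, 4 by limma with either pseudocount, and 2 to 233 when single libraries were left out (233 without NSN-MII replicate 3, 2 without NSN-MII replicate 1). Of the condensin genes, Ncaph was called there, and 0 were called by limma with either pseudocount; without single libraries 0 to 1 were called. At GV, where 0 genes were called, limma called 1 with either pseudocount. The interaction was called for 2 genes, for 43 by DESeq2 (with 1 condensin gene, Ncaph), 6 without the filter, 1 by limma with either pseudocount, and 0 to 12 without single libraries. The number of condensin genes called without single libraries was 6 to 8 between stages, 5 to 7 in SN oocytes, 5 to 6 in NSN oocytes, and 0 at GV and in the interaction. The order of the 4 group means was the same in CPM and FPKM for 5 of 8 genes, not for Ncapd2, Smc2 and Smc4. Library totals over all genes, tried after the results were seen, changed no call of a member and left 26 genes called at MII. By limma on log2(FPKM + 1), Ncapd2 had an adjusted p of 0.101 in SN and 0.0597 in NSN oocytes and Ncapd3 0.0912 in SN oocytes. Directions turned in uncalled results: Smc4 at GV (-0.000279 with all libraries in 1 fit), Ncapd2 at MII (0.14 and 0.17 by limma with pseudocounts of 1 and 0.1), and in the interaction by limma with the same pseudocounts Ncapd2 (0.18 and 0.22), Ncapg2 (-0.11 and -0.11) and Smc2 (0.22 and 0.23). Leaving out single libraries turned 30 more uncalled values. At GV the ranges were -0.0787 to 0.18 for Ncaph, -0.44 to 0.22 for Ncapd2, -0.73 to 0.16 for Ncapd3 and -0.11 to 0.10 for Smc4. At MII they were -0.26 to 0.04465 for Ncapd2 and -0.0726 to 0.16 for Smc4. Ncapg in NSN oocytes ranged from -0.15 to 0.16. In the interaction they were -0.31 to 0.39 for Ncapd2, -0.65 to 0.30 for Ncapd3, -0.17 to 0.30 for Ncapg2, -0.54 to 0.22 for Smc2 and -0.0906 to 0.22 for Smc4. The cause of these changes was not tested. Deviations of same-numbered SN and NSN libraries had correlations of -0.459 to -0.206 at GV and -0.119 to 0.0967 at MII. With so few oocytes per group, these values cannot tell whether the numbers pair the oocytes. With the replicate number as a block, 2 genes and 0 condensin genes were called at MII (Ncaph -1.38, adjusted p = 0.200 by edgeR's quasi-likelihood test), Ncapg between stages had an adjusted p of 0.0758 by the edgeR test, and Ncapd2 turned to 0.0477 at MII and, in the interaction, Ncapd2 to 0.17 and Smc2 to 0.0495. With 3 or 4 oocytes per group, the intervals of the differences between NSN and SN oocytes were wide.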
